A study of Mus musculus with 10 samples.

Results

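The Hox genes were described by their ATAC-seq signal in mouse embryonic fibroblasts (MEFs) infected with reprogramming factors or a control virus. ATAC-seq reads open chromatin through a transposase that inserts adapters where DNA is accessible. The members are all rows of the deposited gene table whose symbol is Hoxa, Hoxb, Hoxc or Hoxd followed by digits only. This gave 40 of 21965 rows, for 39 symbols, since Hoxd4 is listed under 2 Ensembl identifiers. The Hoxa cluster on chromosome 6 holds 11 rows, the Hoxb cluster on chromosome 11 holds 10, the Hoxc cluster on chromosome 15 holds 9, and the Hoxd cluster on chromosome 2 holds 10. Rows were taken by symbol and not by a measured value, though the Hox genes were chosen with earlier results of these data known.

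Hox genes encode homeodomain transcription factors that give cells along the body axis and the limbs their positional identity. Within each cluster the genes lie in the order in which they are used, from the anterior genes (low paralog numbers, hindbrain and neck) through the central ones (trunk) to the posterior ones (lumbar region, tail, genitals and digits). Polycomb complexes keep unused Hox genes closed and Trithorax complexes keep used ones active, and cultured fibroblasts are known to keep a Hox pattern that records the site they came from.

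All libraries came from MEFs of E13.5 embryos labelled strain ICR and carrying the OG2 transgene, in which the Oct4 promoter drives GFP. The cells were kept in mESC medium and infected with pMXs retroviruses packaged in plat-E cells. Single factors were Sox2, Klf4, Oct4 and an Oct4 mutant named L80A (Oct4-L80A). The combinations were SKO with a hairpin against Brg1 (SKO+shBrg1), SKO-L80A in medium with 50 µg/ml vitamin C (SKO-L80A+Vc), SKO-L80A with Gadd45a (SKO-L80A+Ga), SKO-L80A itself (Sox2, Klf4 and the L80A mutant) and SKO (Sox2, Klf4 and wild-type Oct4). A virus expressing Flag was the control. Cells were infected as a population, so the number of cells that took up each virus is not known, and no source used here gives the time of harvest. Each condition had 1 library with 2 columns in the table, counted as 1 sample, so no difference below carries replicate error or a significance test.

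The values are a signal per gene, treated as a density along the gene. The table used here gives no read counts, so depth is unknown. Column sums lay between 112439 and 370390. The 2 columns of a library correlated across the Hox rows with Pearson's r between 0.917 and 0.972, a description over genes that share a library. The factor genes were checked against the labels first. Klf4 had 166 and 146 in Klf4 columns, against 12.6 and 17.8 in Flag columns. The library labelled Oct4 had 30.8 and 24.2 over Pou5f1, which encodes Oct4, where Flag had 0.812 and 1.12. It also had 62.9 and 55.2 over Sox2, near the 75.5 and 87.1 of the Sox2 library, while Flag had 2.73 and 5.12. Its values below are therefore those of the library labelled Oct4.

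Of 16 fibroblast markers, 11 had a mean signal at or above 6.92, the median of the whole table. The median of the mean signals of all genes was 7.69, so most genes reached 6.92 and the cut alone marks no cell type. Fibroblast markers had a median of 11.5, and the other marker lists had medians between 0.852 and 5.88. Of the markers of other cells, 1 of 6 endothelial, 2 of 6 blood, 0 of 6 epithelial, 3 of 6 neural, 0 of 6 muscle and 0 of 7 pluripotency genes reached 6.92, and none was at 0 in every column. Summed over each list, the lowest and highest libraries had 157 and 279 for fibroblast markers, 17.8 and 33.2 for endothelial, 15.7 and 40.9 for blood, 9.39 and 24.2 for epithelial, 24.1 and 50.2 for neural, 9.73 and 20.9 for muscle and 8.86 and 14.7 for pluripotency genes. In such bulk cells, more cells with an open gene and a wider opening in each cell cannot be told apart.

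Promoters of 3 Hox genes are shown because the levels and differences below turn on them. Hoxd13 had the largest difference past the size rule (at least 2-fold with a signal of 6.92 or more), Hoxa3 the highest signal among Hox genes with a promoter entry, and Hoxa2 the lowest among those with an entry and 1 row. The windows run from 250 bases before to 50 bases after the start in RefSeq, assembly GRCm38.p6. They lie at chr2:74667975-74668274 on the plus strand for Hoxd13, chr6:52213018-52213317 on the minus strand for Hoxa3 and chr6:52164782-52165081 on the minus strand for Hoxa2. Capitals mark CACCC, the core letters of many Klf binding sites, and the GC box GGGCGG, on either strand.
Hoxd13: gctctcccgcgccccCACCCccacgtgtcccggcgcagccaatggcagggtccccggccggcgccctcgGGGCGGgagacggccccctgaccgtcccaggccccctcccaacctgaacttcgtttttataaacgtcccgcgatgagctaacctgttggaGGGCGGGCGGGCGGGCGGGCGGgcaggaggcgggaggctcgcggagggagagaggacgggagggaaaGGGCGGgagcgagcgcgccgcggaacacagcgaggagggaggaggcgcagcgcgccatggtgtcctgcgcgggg
Hoxa3: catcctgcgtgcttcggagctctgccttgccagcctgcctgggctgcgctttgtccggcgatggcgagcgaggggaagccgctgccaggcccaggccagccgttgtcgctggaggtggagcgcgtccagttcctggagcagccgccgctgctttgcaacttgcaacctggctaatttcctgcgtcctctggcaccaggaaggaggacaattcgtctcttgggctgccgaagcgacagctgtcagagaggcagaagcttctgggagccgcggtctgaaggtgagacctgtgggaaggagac
Hoxa2: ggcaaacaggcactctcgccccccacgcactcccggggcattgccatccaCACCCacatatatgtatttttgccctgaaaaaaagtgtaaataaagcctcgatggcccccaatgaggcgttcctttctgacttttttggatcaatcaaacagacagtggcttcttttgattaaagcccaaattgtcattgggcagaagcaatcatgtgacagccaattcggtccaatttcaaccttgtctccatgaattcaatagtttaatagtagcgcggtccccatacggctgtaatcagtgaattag
The Hoxd13 window held 37 CG dinucleotides, a GC content of 74.3%, 1 CACCC match and 7 GC box matches, which overlap one another in the repeated run. The Hoxa3 window held 20 CG dinucleotides and no match to either motif at a GC content of 64%. The Hoxa2 window held 9 CG dinucleotides and 1 CACCC match at a GC content of 45.7%. Of all 32851 windows of this length, 0.627% had at least as many GC boxes as the Hoxd13 window and 5.58% at least as many CG dinucleotides. Among the 24 windows of the 22 Hox genes that have one, the numbers were 1 and 2.

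Across those 24 windows the median was 14.5 CG dinucleotides, with a range of 4 to 45, and the median GC content was 57.7%. All windows had a median of 7 CG dinucleotides and 52.7% GC. CACCC was found in 66.7% of the Hox windows and 57.5% of all windows, the GC box GGGCGG in 41.7% and 35.7%, and the Sox letters ACAAAG in 25% and 18.7%. A longer Klf4 motif, GGGTGTGG, was found in 4.17% of Hox windows and 3.56% of all windows. The Hox window that held it was that of Hoxa2, on the opposite strand, and the Hoxd13 window did not hold it. The octamer ATTTGCAT, which Oct4 recognises, was in 0 of the 24 Hox windows and in 1.74% of all windows. Both strands were searched and overlapping matches counted. A match says that the letters are present and nothing about binding. Across 19 Hox genes, CG number and signal had a Spearman rho of 0.107. No source used here gives the window over which the authors took the signal, so whether it covers these promoters is not known.

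**Figure D1:**
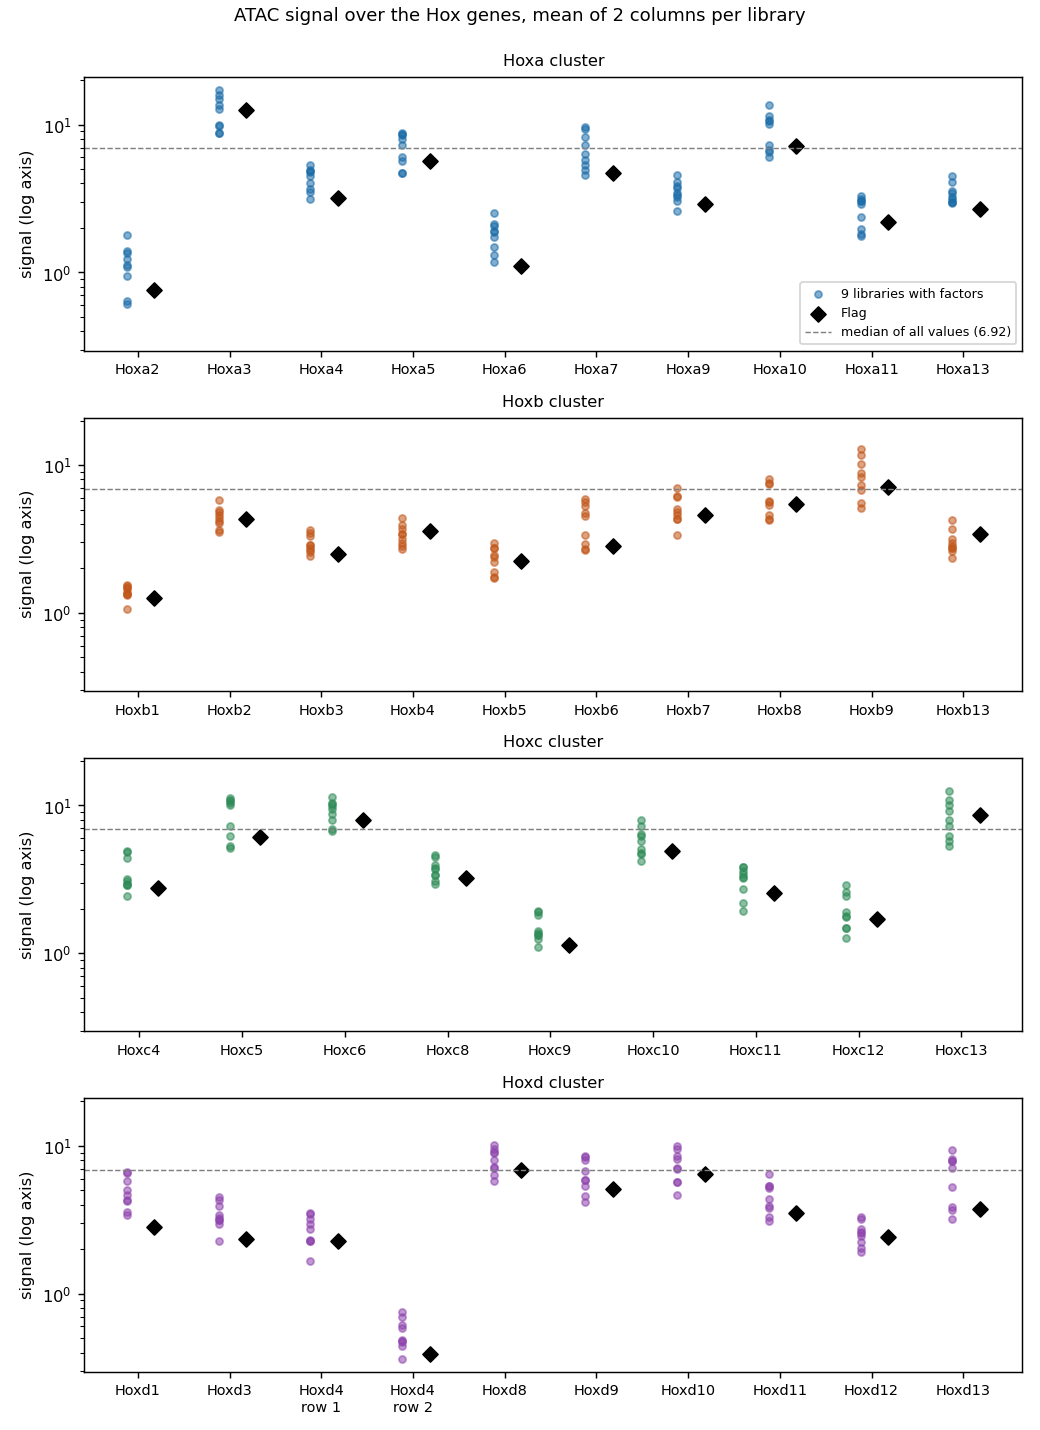
ATAC signal on a log axis for 39 Hox rows in 4 panels by cluster, with 9 libraries that carry factors as circles, Flag as a black diamond and the median of all values, 6.92, as a dashed line; each mark is the mean of 2 columns. Hoxa3 lies above the line in every library, and Hoxd4 row 2 (ENSMUSG00000115956) lies lowest, while Hoxd4 row 1 is ENSMUSG00000101174.

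Most Hox genes carried a low but nonzero signal in these fibroblasts, with a few members near or above the table median, called open, in each cluster. As means over the 10 libraries, 9 of 40 rows reached 6.92. In every library 2 rows reached it, Hoxa3 among them, 14 rows did in some, and 24 in none. No row was at 0 in any column. Ranked among all genes by mean signal, the Hox rows had a median percentile of 39.3, and 37 of them lay between the 25th and the 55th. The median over Hox rows was 4.13, against 7.69 over all genes.

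In the Hoxa cluster, Hoxa3 and Hoxa10 were among the open genes, but the posterior end beyond Hoxa10 was low. There Hoxa11 and Hoxa13 had means of 2.55 and 3.37 over the libraries, below the 6.80 and 6.60 of the central genes Hoxa5 and Hoxa7. Hoxa3 (ENSMUSG00000079560, chr6:52169059-52213067), needed for the thymus and parathyroid, had 8.75 at its lowest, 12.7 as its median and 17.3 at its highest library, against 12.5 in Flag. Its RefSeq span overlaps those of Hoxa4, Hoxa5 and Hoxa6, so signal in the shared stretch may belong to more than 1 gene. Hoxa10, a regulator of uterus and lumbar identity, had 6.02, 8.67 and 13.7 as lowest, median and highest library, against 7.16 in Flag.

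Beside these open genes lay nearly closed ones. Hoxa2, which specifies the second branchial arch, lies next to Hoxa3 and had 0.613, 1.11 and 1.80 as its lowest, median and highest library, against 0.760 in Flag. Hoxa6 had 1.11, 1.81 and 2.52, with 1.11 in Flag its lowest. Hoxa11, a gene of the forearm and lower leg, had 1.76, 2.65 and 3.29, against 2.19 in Flag. Over the libraries, the range of Hoxa2 lay far below that of its neighbour Hoxa3. Of the other Hoxa rows, 5 had means between 3.37 for Hoxa13, a digit gene, and 6.80 for Hoxa5, a gene of lung and neck identity.

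The Hoxb cluster was lower at its anterior end. Hoxb1, which specifies the hindbrain segment of the facial nerve, had 1.06, 1.36 and 1.56 as lowest, median and highest library, against 1.26 in Flag. Hoxb3 and Hoxb5 had medians of 2.80 and 2.33, against 2.52 and 2.25 in Flag. At the trunk end, Hoxb9, a rib-patterning gene, had 5.13, 7.83 and 12.8, against 7.10 in Flag. Hoxb8 and Hoxb7 had medians of 5.55 and 4.73, against 5.45 and 4.62 in Flag. Across the 10 Hoxb rows, signal and paralog number had a Spearman rho of 0.55. The same description gave -0.30 in Hoxa, -0.17 in Hoxc and 0.18 in Hoxd, so signal followed the order along the axis no further than that in any cluster. The other 4 Hoxb rows had means between 3.08 for Hoxb13, a prostate and tail gene that lies apart from the rest of its cluster, and 4.43 for Hoxb2.

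In the Hoxc cluster, Hoxc5 and Hoxc6 were open together, and Hoxc13 was open at the other end of the cluster. Hoxc6, a thoracic gene, had 6.71, 9.07 and 11.5 as lowest, median and highest library, against 8.01 in Flag. Hoxc5, a neck-level gene that acts with Hoxa5 in phrenic motor neurons, had 5.15, 8.66 and 11.3, against 6.09 in Flag. Hoxc13, a hair and nail gene at the posterior end, had 5.32, 8.28 and 12.6, against 8.58 in Flag. These 3 rows were near or above 6.92, while Hoxc9, Hoxc12 and Hoxc11 had medians of 1.35, 1.78 and 3.27, against 1.14, 1.70 and 2.58 in Flag. Hoxc9, which sets thoracic motor neuron identity, was thus at about the level of Hoxb1. The other 3 Hoxc rows had means between 3.44 for Hoxc4 and 5.73 for Hoxc10.

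The Hoxd cluster had its highest rows, Hoxd8 and Hoxd10, in the middle. Hoxd8 had 5.82, 7.56 and 10.1 as lowest, median and highest library, against 6.82 in Flag. Hoxd10, a lumbar and forelimb gene, had 4.68, 7.01 and 9.99, against 6.42 in Flag. Hoxd9 had 4.20, 5.88 and 8.54, against 5.10 in Flag, with an SD of 0.08 relative to all genes. Hoxd12, a digit gene, had 1.93, 2.52 and 3.32, against 2.43 in Flag. The Hoxd4 row ENSMUSG00000115956 was the lowest Hox row in 9 libraries, with 0.360, 0.484 and 0.749, against 0.393 in Flag. The Hoxd4 row ENSMUSG00000101174 had 1.67, 2.53 and 3.53, against 2.27 in Flag, and differed from Hoxd3 by under 0.001 in 5 of 20 columns. RefSeq gives 6 pairs of Hox genes with overlapping spans, over 10 genes, Hoxd3 with Hoxd4 and Hoxd10 with Hoxd11 among them, so values of such pairs may share signal. The other 4 Hoxd rows had means between 3.33 for Hoxd3 and 6.02 for Hoxd13.

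Grouped along the body axis, the median signal was 3.42 over 13 anterior rows (paralogs 1 to 4), 5.84 over 11 central rows (paralogs 5 to 8) and 3.95 over 16 posterior rows (paralogs 9 to 13). By cluster it was 4.20 in Hoxa, 3.74 in Hoxb, 3.65 in Hoxc and 4.57 in Hoxd. By paralog number, group 10 had the highest median, 7.27 over 3 rows, and group 12 the lowest, 2.24 over 2 rows. RefSeq length and signal had a rho of 0.283 across the Hox rows.

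The order of the Hox genes was close to the same in all 10 libraries. Spearman's rho across the 40 rows lay between 0.882 and 0.988 over the 45 pairs of libraries, and was at least 0.909 with Flag. This is a description across genes of 1 table, which share the gene windows in every library. Levels moved together with those of all genes. Of the 40 rows, 27 were highest in SKO+shBrg1, 5 in SKO-L80A and 3 in SKO, while 13 were lowest in Sox2 and 11 in Oct4-L80A. The same counts were not made over all genes, so they are not read as particular to Hox genes. The Hox median was 3.24 in Sox2, 3.86 in Klf4, 3.74 in the library labelled Oct4, 3.33 in Oct4-L80A, 5.31 in SKO+shBrg1, 3.68 in SKO-L80A+Vc, 4.57 in SKO-L80A+Ga, 4.86 in SKO-L80A, 4.89 in SKO and 3.30 in Flag. The medians of all genes in the same order were 5.95, 6.40, 7.27, 5.41, 10.8, 6.63, 8.0, 10.0, 9.82 and 6.03. Both sets of medians were highest in SKO+shBrg1.

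Once the median of all genes was taken off in each library, a Hox row varied with a median SD of 0.20 on the log2 scale over the 10 libraries. The 13201 genes in the range of Hox signal had a median of 0.19. The largest SDs were those of Hoxd4 (ENSMUSG00000115956) at 0.56, Hoxb1 at 0.43, Hoxd13 at 0.41, Hoxc9 at 0.38, Hoxb6 at 0.33 and Hoxa6 at 0.32. Hoxd13 was the only one of these 6 rows whose mean in any library reached 6.92; the others were read at low signal.

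Differences between libraries were taken as log2(signal + 0.138), averaged over both columns, where 0.138 is a pseudocount. They are given as such or relative to all genes, which means less the median difference of all 21965 genes in that comparison. A gene counted as higher or lower with a 2-fold or larger difference if the greater of both mean signals reached 6.92; rows that reached it are called open in that comparison. A second description counts genes whose columns were separated, with both columns of 1 library above or below both of the other once each column's median of all genes was taken off.

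**Figure D2:**
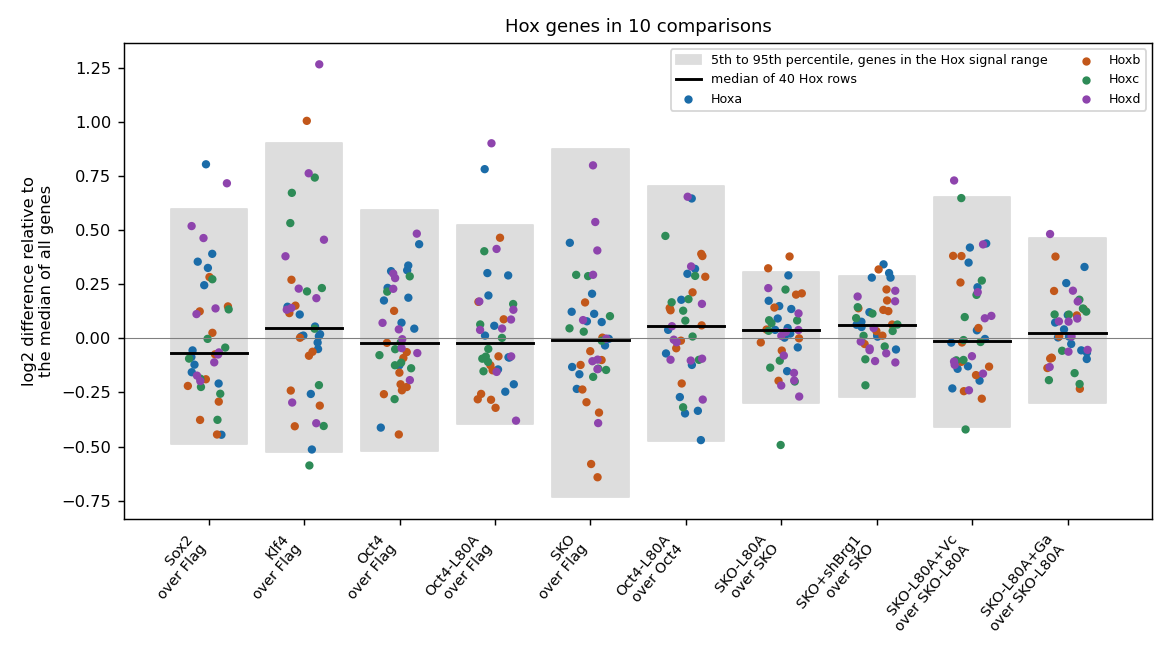
Log2 difference of each of 40 Hox rows less the all-gene median in 10 comparisons, coloured by cluster, with the Hox median as a black line and a grey box from the 5th to the 95th percentile of all genes in the Hox signal range. The Hox medians lie between -0.07 and 0.06, and Hoxd13 in Klf4 over Flag is the highest point at 1.27.

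In Klf4 over Flag, the question was what Klf4 alone does to fibroblast chromatin, and Hoxd13 was the 1 Hox gene counted as higher. Hoxd13 (chr2:74668225-74671603), the most posterior gene of its cluster and a main regulator of digits, had 8.76 and 9.88 in Klf4 columns, against 3.16 and 4.36 in Flag columns. Both Klf4 columns lay above both Flag columns. The difference was 1.29 on the log2 scale, or 2.45-fold, and 1.27 relative to all genes, with 1.30 in column 1 and 1.23 in column 2. The count was 1 Hox row higher and 0 lower, beside 0.751% and 0.141% of all genes, and it was also 1 and 0 relative to all genes, beside 0.715% and 0.155%. Only 10 Hox rows had a mean signal that reached the minimum in either library, so the other 30 could not be called at any size.

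Other genes of the list had values in the same direction but missed the rule. Hoxb6 (chr11:96292814-96301569), a trunk gene, had 4.95 and 6.80 in Klf4 columns, against 2.26 and 3.39 in Flag columns, a 2.04-fold difference at a signal below the minimum. Hoxc5 had 7.78 and 13.5 in Klf4 columns, against 4.88 and 7.30 in Flag columns, with 0.74 relative to all genes. Hoxd1, which guides the wiring of pain-sensing neurons in mice, had 3.64 and 5.60 in Klf4 columns, against 1.61 and 4.01 in Flag columns, with 0.76 relative to all genes. The columns of Hoxd1 overlapped on the signal scale, while those of Hoxb6 and Hoxc5 did not. Hoxc9, Hoxc11, Hoxd3 and Hoxd8 were at 0.67, 0.53, 0.46 and 0.38 relative to all genes.

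At the other end, Hoxc13 had 4.49 and 7.05 in Klf4 columns, against 6.72 and 10.5 in Flag columns, at -0.59 relative to all genes. Hoxa3 had 7.67 and 9.85 in Klf4 columns, against 9.88 and 15.2 in Flag columns, at -0.51. On the signal scale the columns of Hoxc13 overlapped, and those of Hoxa3 were next to each other without overlap. Hoxa10 had 5.86 and 8.70 in Klf4 columns, against 5.49 and 8.83 in Flag columns, so its columns overlapped. By cluster the median relative to all genes was 0.01 in Hoxa, -0.03 in Hoxb, 0.22 in Hoxc and 0.21 in Hoxd. By axis it was -0.02 for anterior, 0.05 for central and 0.12 for posterior rows. Over all 40 rows it was 0.05, with 26 above 0. After the columns' medians were taken off, 8 rows were separated above and 14 below, beside 15.9% and 34.3% of all genes.

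**Figure D3:**
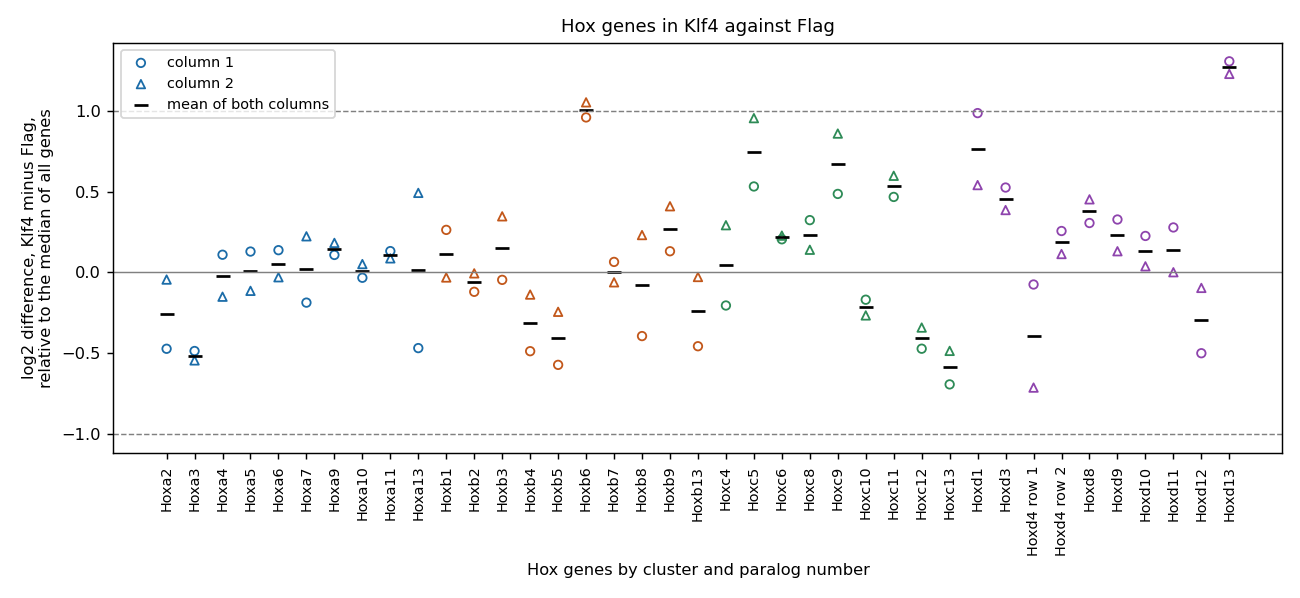
Log2 difference of Klf4 minus Flag relative to the median of all genes for 39 Hox rows in order of cluster and paralog number, with column 1 as circles, column 2 as triangles and their mean as a bar; dashed lines mark 2-fold. Hoxd13 lies above the line in both columns, Hoxb6 lies at 1.01 on average, and the neighbour Hoxd12 lies at -0.30.

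The difference at Hoxd13 was not shared by its neighbours. Hoxd12, the next gene, was at -0.30 relative to all genes and Hoxd11 at 0.14. Evx2, a homeobox gene on the far side of Hoxd13, had 1.39 and 1.73 in Klf4 columns, against 1.16 and 2.14 in Flag columns, at -0.06, and Lnpk beyond it was at 0.03. Markers of other cells also moved between these libraries: summed epithelial markers were 16.0 in Klf4 and 9.39 in Flag, endothelial 26.1 and 18.8, muscle 15.1 and 10.4, neural 29.6 and 24.1, blood 20.2 and 17.8, pluripotency 11.2 and 8.86, and fibroblast markers 164 and 215. Their part in the Hoxd13 difference was not tested.

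In SKO over Flag, all 3 factors together were set against the control, and the whole table shifted by 0.50 on the log2 scale. The shift was 0.97 in column 1 and 0.09 in column 2. It was 0.59 for genes in the Hox signal range and -0.00 for genes with a signal below 1. Hoxd13 was again the 1 Hox gene counted as higher, with 8.85 and 6.87 in SKO columns, against 3.16 and 4.36 in Flag columns, 2.06-fold and 1.04 on the log2 scale. Both SKO columns lay above both Flag columns. Relative to all genes the difference was 0.54, and the count became 0 higher and 0 lower, beside 1.34% and 0.0865% of all genes. Without that step it was 1 and 0, beside 6.24% and 0.0182%. The call of Hoxd13 also ended in column 2 alone, at 0.64, and with a larger pseudocount, at 0.97, while column 1 alone gave 10 Hox rows higher.

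Hoxd1 had 7.21 and 5.89 in SKO columns, against 1.61 and 4.01 in Flag columns, 2.47-fold at a mean signal below 6.92 and 0.80 relative to all genes. Hoxa7, a thoracic gene, had 10.9 and 7.70 in SKO columns, against 4.0 and 5.49 in Flag columns, at 0.44, and Hoxd9 was at 0.29. In all 3 genes both SKO columns were above both Flag columns on the signal scale. The lowest rows relative to all genes were Hoxb1 at -0.64 and Hoxb13 at -0.58. Hoxa3, Hoxc6 and Hoxd10 were lowest among the open genes, at -0.23, -0.15 and -0.14. The Hox median relative to all genes was -0.01, with 18 of 40 rows above 0. By cluster it was 0.08 in Hoxa, -0.18 in Hoxb, 0.03 in Hoxc and 0.04 in Hoxd. Separated columns were found for 2 rows above and 20 below, beside 12.1% and 47.5% of all genes. The marker sums that follow are raw and hold the shift of all genes, whose median was 9.82 in SKO and 6.03 in Flag. Summed epithelial markers were 21.1 in SKO and 9.39 in Flag, endothelial 29.0 and 18.8, blood 34.5 and 17.8, neural 47.8 and 24.1, muscle 19.7 and 10.4, pluripotency 12.5 and 8.86, and fibroblast markers 259 and 215. Their part in the Hoxd13 difference was not tested.

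**Figure D4:**
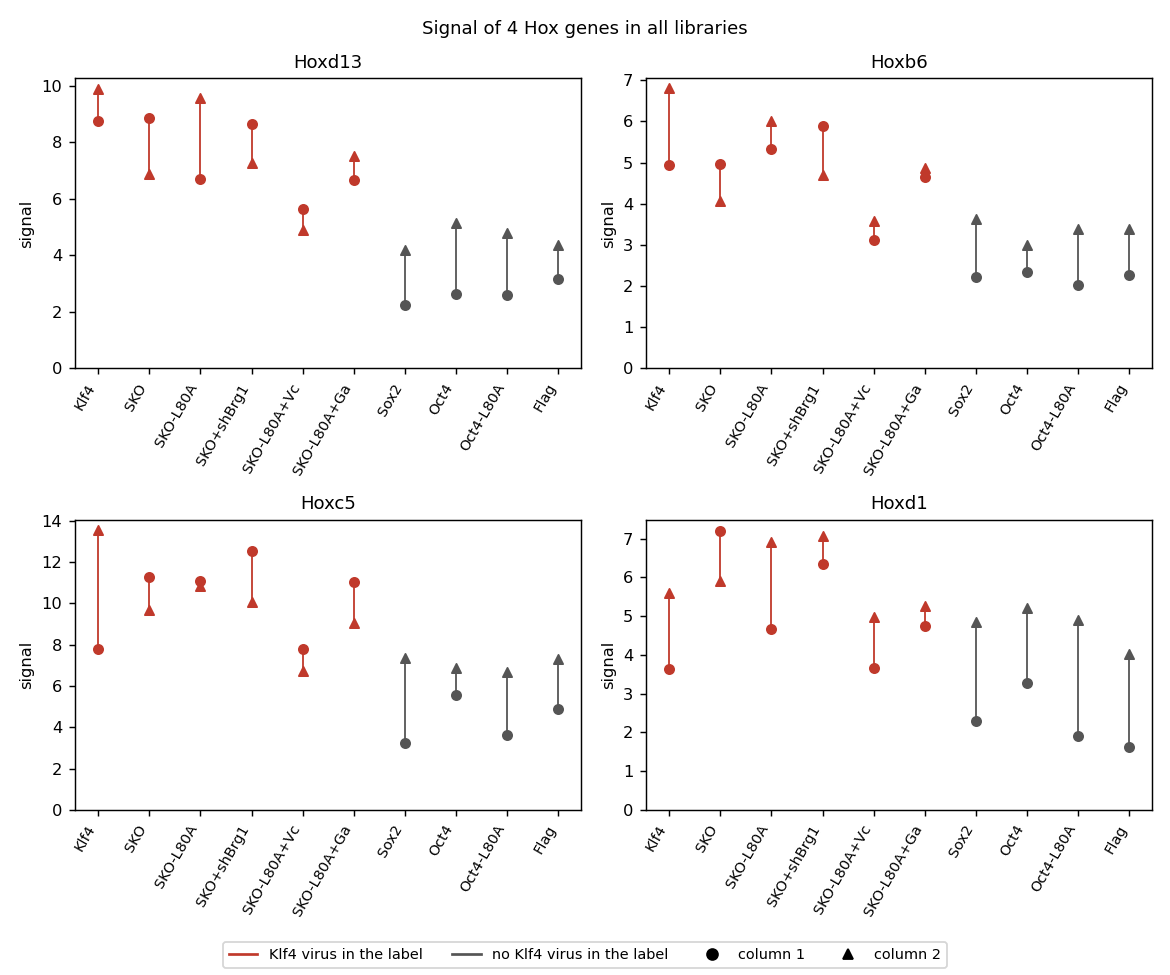
Signal of Hoxd13, Hoxb6, Hoxc5 and Hoxd1 in all 10 libraries, with 6 libraries whose label names Klf4 in red and 4 without in grey, circles for column 1 and triangles for column 2. Hoxd13 library means lie between 5.27 and 9.32 with Klf4 and between 3.22 and 3.89 without it.

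Hoxd13 was followed through all libraries. It had 8.76 and 9.88 in Klf4, 8.65 and 7.27 in SKO+shBrg1, 5.64 and 4.90 in SKO-L80A+Vc, 6.66 and 7.51 in SKO-L80A+Ga, 6.71 and 9.56 in SKO-L80A and 8.85 and 6.87 in SKO. It had 2.25 and 4.19 in Sox2, 2.64 and 5.13 in the library labelled Oct4, 2.59 and 4.78 in Oct4-L80A and 3.16 and 4.36 in Flag. Every library whose label names Klf4 had a higher mean than every library without it. Single columns overlapped only between SKO-L80A+Vc, at 4.90, and the second column of the library labelled Oct4, at 5.13.

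This grouping by Klf4 in the label was made after the values were seen, and 5 of the 6 libraries with Klf4 also carry Sox2 and a form of Oct4, so it is given without a test. On the signal scale, 8 Hox rows had all 6 library means with Klf4 above all 4 without, beside 7.1% of all genes, and 0 had them below, beside 0.642%. They were Hoxa11, Hoxb6, Hoxb9, Hoxc4, Hoxc5, Hoxd1, Hoxd11 and Hoxd13. Once each library's median of all genes was taken off, 2 rows lay above, Hoxc5 and Hoxd13, beside 3.71%. Another 2 rows lay below, Hoxc10 and Hoxd4 (ENSMUSG00000101174), beside 7.87%. The Hoxd13 mean on that scale was 0.57 higher with Klf4 and that of Hoxc5 0.35 higher. The lowest, median and highest library of Hoxc5 were 7.27, 10.6 and 11.3 with Klf4, against 5.15, 5.70 and 6.20 without. For Hoxb6 they were 3.35, 5.02 and 5.87, against 2.68, 2.76 and 2.92, and for Hoxd1 4.33, 5.40 and 6.70, against 2.81, 3.49 and 4.25.

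In Sox2 over Flag, 0 Hox rows were higher and 0 lower, beside 0.0592% and 0.137% of all genes. Only 7 Hox rows reached the minimum signal in either library. The most open genes tended to lie below all genes. Hoxa3 had 6.32 and 11.2 in Sox2 columns, against 9.88 and 15.2 in Flag columns, at -0.45 relative to all genes. Hoxb9 had 4.27 and 5.98 in Sox2 columns, against 6.13 and 8.08 in Flag columns, and Hoxc13 had 4.80 and 7.56 in Sox2 columns, against 6.72 and 10.5 in Flag columns, both at -0.38. Of these, Hoxb9 alone had both Sox2 columns below both Flag columns on the signal scale. Closed rows held the highest values, with Hoxa6 at 0.80 (1.22 and 2.89 in Sox2 columns, against 0.929 and 1.29 in Flag columns) and Hoxd4 (ENSMUSG00000115956) at 0.72. In the whole table, genes with a signal below 1 shifted by 0.10 in this comparison, against -0.09 for all genes. After the trend of the difference with signal was removed, Hoxa6 was at 0.69 and this Hoxd4 row at 0.49. The part of low signal in these values was not tested. The median over Hox rows was -0.07, and 6 rows were separated above and 14 below, beside 11% and 25.1% of all genes.

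In the library labelled Oct4 over Flag, 0 Hox rows were higher and 0 lower, beside 0.36% and 0.0273% of all genes. All 40 rows lay within 0.5 of the median of all genes on the log2 scale. Hoxa5 had 7.95 and 9.03 in the library labelled Oct4, against 4.11 and 7.26 in Flag columns, at 0.44 relative to all genes, and Hoxa10 had 9.49 and 10.6, against 5.49 and 8.83 in Flag, at 0.34. In both genes the columns did not overlap. Hoxb13 was lowest at -0.44. The Hox median was -0.02, with 0.19 in Hoxa and -0.19 in Hoxb, and 4 rows were separated above and 14 below, beside 11.3% and 25.6% of all genes.

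In Oct4-L80A over Flag, 0 Hox rows were higher and 0 lower, beside 0.00455% and 0.041% of all genes. Hoxa6 had 1.21 and 2.55 in Oct4-L80A columns, against 0.929 and 1.29 in Flag columns, at 0.78 relative to all genes, and Hoxd4 (ENSMUSG00000115956) was at 0.90, both at low signal. Genes of the whole table with a signal below 1 shifted by 0.15 here, against -0.16 for all genes. Among open genes Hoxb9 was lowest at -0.32, with 3.17 and 7.83 in Oct4-L80A columns, against 6.13 and 8.08 in Flag columns. Hoxd10 was at -0.38. The columns of Hoxb9 overlapped. The Hox median was -0.02, and 10 rows were separated above and 6 below, beside 11.6% and 16.1% of all genes.

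The L80A mutant was set against wild-type Oct4 directly, alone and in the combination. In Oct4-L80A over Oct4, where the second library is the one labelled Oct4, the median of all genes was -0.40, with -0.74 in column 1 and -0.05 in column 2. Here 0 Hox rows were higher and 0 lower, beside 0% and 0.779% of all genes. Hoxa5 had 3.52 and 5.95 in Oct4-L80A, against 7.95 and 9.03 in the library labelled Oct4, at -0.47 relative to all genes. The Oct4-L80A columns were the lower ones without overlap on the signal scale. Hoxc13 was highest among open genes at 0.18. As a median the Hox rows lay at 0.06, and 14 rows were separated above and 4 below, beside 24.5% and 9.72% of all genes.

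In SKO-L80A over SKO the Hox genes were close to level. Here 0 rows were higher and 0 lower, beside 0.00911% and 0% of all genes, and all 40 lay within 0.5 of the median of all genes, as did 97.2% of the genes in the Hox signal range. Hoxd10 had 8.67 and 10.5 in SKO-L80A, against 8.11 and 8.07 in SKO, at 0.23, and Hoxb9 had 10.6 and 12.7, against 11.9 and 8.55 in SKO, at 0.20. The columns of Hoxd10 did not overlap and those of Hoxb9 did. Hoxc9 was lowest at -0.49, with 1.05 and 1.47 in SKO-L80A, against 1.78 and 1.83 in SKO. Over the Hox rows the median was 0.04, and 7 rows were separated above and 5 below, beside 8.57% and 10.9% of all genes. Whether the L80A difference itself differed between the single factor and the combination was not tested.

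Brg1 is the motor subunit of a chromatin remodelling complex of the Trithorax group. In SKO+shBrg1 over SKO, 0 Hox rows were higher and 0 lower, beside 0.00455% and 0% of all genes, and all 40 lay within 0.5 of the median of all genes. Hoxa10 had 14.7 and 12.7 in SKO+shBrg1, against 12.4 and 8.91 in SKO, at 0.28, without overlap. Hoxb9 had 15.1 and 10.5 in SKO+shBrg1, against 11.9 and 8.55 in SKO, at 0.23, with overlap. Hoxc11 was lowest at -0.22 and Hoxd9 lowest among open genes at -0.11. The Hox median was 0.06, and 5 rows were separated above and 2 below, beside 6.5% and 15% of all genes.

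Vitamin C is a cofactor of enzymes that remove DNA and histone methylation. In SKO-L80A+Vc over SKO-L80A the median of all genes was -0.49, and 0 Hox rows were higher and 0 lower, beside 0% and 0.469% of all genes. Hoxc13 had 4.76 and 5.89 in SKO-L80A+Vc, against 8.95 and 11.3 in SKO-L80A, -0.91 on the log2 scale and -0.42 relative to all genes. Hoxb8, whose loss in mice causes excessive grooming, had 4.17 and 4.33 in SKO-L80A+Vc, against 6.31 and 8.50 in SKO-L80A, at -0.28. In both genes the SKO-L80A+Vc columns lay below those of SKO-L80A without overlap. Hoxc6 was highest among open genes at 0.10. The Hox median was -0.01, and 14 rows were separated above and 4 below, beside 32.2% and 7.56% of all genes.

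Gadd45a is a stress-response protein that has been tied to DNA demethylation. In SKO-L80A+Ga over SKO-L80A the median of all genes was -0.25, and 0 Hox rows were higher and 0 lower, beside 0% and 0% of all genes. Hoxa10 had 12.7 and 10.2 in SKO-L80A+Ga, against 10.7 and 10.9 in SKO-L80A, at 0.33 relative to all genes. Hoxb9 had 9.82 and 6.89 in SKO-L80A+Ga, against 10.6 and 12.7 in SKO-L80A, at -0.23. On the signal scale the columns of Hoxa10 overlapped and those of Hoxb9 did not. For the 40 rows the median was 0.03, and 10 rows were separated above and 0 below, beside 23.7% and 5.84% of all genes. All 40 rows lay within 0.5 of the median of all genes.

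Hox rows that reached the minimum signal, and so could be called, numbered between 6 (Oct4-L80A over Flag) and 16 (SKO+shBrg1 over SKO). In these 2 comparisons 10433 and 12811 of 21965 genes reached it. Over the 10 comparisons, between 32 rows (Klf4 over Flag) and 40 rows lay within 0.5 of the median of all genes. Among the genes in the Hox signal range, the share within that band lay between 76.0% (SKO over Flag) and 98.0% (SKO+shBrg1 over SKO). The Hox median lay between -0.10 and 0.09 of the median of those genes. Beyond their 95th percentile there were at most 3 Hox rows in a comparison, and below their 5th at most 1. Comparisons that share Flag, SKO or SKO-L80A are not independent of one another.

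The genes around and upstream of the Hox clusters were described by the same rules. Hox cofactors of the TALE class, which bind DNA with Hox proteins, had a median signal of 20.2 over 9 genes. Polycomb genes had 14.4 over 31 and Trithorax and MLL genes 16.7 over 15. The Polycomb list also holds Kdm6a and Kdm6b, which remove the histone mark that Polycomb sets. The 23 genes flanking the clusters had a median of 20.5, though Skap1, Calcoco2 and Ttll6 beside the Hoxb cluster had 0.987, 3.36 and 4.08. The ParaHox and Evx genes, the closest relatives of Hox, had 1.52 over 8 genes. Retinoic acid, Wnt and Gdf genes had 5.88 over 18, limb and axis genes 6.59 over 22, cranial homeobox genes 4.99 over 18 and other homeobox genes 5.30 over 64.

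In Klf4 over Flag, 1 of 31 Polycomb genes was lower, beside 0.141% of all genes. It was Scmh1, a Polycomb repressive complex component, with 5.01 and 8.04 in Klf4 columns, against 12.9 and 18.9 in Flag columns, a log2 difference of -1.28. Among 18 cranial homeobox genes 1 was higher, Dlx4, with 7.32 and 10.7 in Klf4 columns, against 2.75 and 5.09 in Flag columns, a log2 difference of 1.21. Dlx4 is also the 1 of 64 other homeobox genes past the rule, and 0.751% of all genes were higher. The TALE, ParaHox, Trithorax, retinoic acid, limb and flanking lists had 0 in either direction. Medians relative to all genes were 0.05 for Hox, -0.03 for TALE, -0.04 for ParaHox and Evx, -0.11 for Polycomb, -0.05 for Trithorax, 0.09 for retinoic acid, 0.15 for limb, 0.19 for cranial, -0.05 for flanking and 0.18 for other homeobox genes.

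In SKO over Flag, the genes past the rule were all higher. They were 1 of 9 TALE genes (Meis3, 1.06 on the log2 scale), 1 of 8 ParaHox and Evx genes (Gsx1, 1.16), 4 of 31 Polycomb genes, 3 of 18 retinoic acid, Wnt and Gdf genes, 2 of 18 cranial, 1 of 23 flanking and 3 of 64 other homeobox genes, and 0 of the Trithorax and limb lists, beside 6.24% of all genes. The called genes of the Polycomb list included Ezh1, a methyltransferase for histone H3 lysine 27, at 1.32. They also included Kdm6b, which removes that mark and so opposes Polycomb, at 1.20. The retinoic acid genes included Crabp2, a retinoic acid carrier, at 1.44 and Aldh1a3, which makes retinoic acid, at 1.32. Dlx4 was at 1.41, Dlx2 at 1.25 and the pituitary and motor neuron gene Lhx3 at 1.48. Dlx4 and Dlx2 are on both the cranial and the other homeobox list and are counted in each. Of all these, Nfe2 alone stayed past 2-fold relative to all genes. Nfe2, a blood cell factor, had 12.9 and 8.54 in SKO columns, against 2.44 and 4.08 in Flag columns, at 1.19 relative to all genes. It lies on the Hoxc4 side of the Hoxc cluster, with Smug1, Cbx5 and Hnrnpa1 between. The Hoxc rows had a median of 0.03 in the same comparison. List medians relative to all genes were -0.01 for Hox, 0.11 for TALE, -0.28 for ParaHox and Evx, 0.06 for Polycomb, 0.01 for Trithorax, -0.09 for retinoic acid, 0.08 for limb, 0.10 for cranial, -0.02 for flanking and 0.08 for other homeobox genes.

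Elsewhere few of these genes passed. In Oct4-L80A over Oct4, Kdm6b at -1.10 and Dlx4 at -1.05 were lower, beside 0.779% of all genes. Relative to all genes they were at -0.71 and -0.65, which ends both calls. In SKO-L80A+Vc over SKO-L80A the retinoid receptor gene Rxrg was lower at -1.04, beside 0.469% of all genes. Relative to all genes it was at -0.55, which ends the call. In the remaining 6 comparisons, 0 genes of the 9 lists passed. Cbx5 and Hnrnpa1, which flank the Hoxc cluster head to head, differed by at most 0.0064 in any column, so they carry the same signal here and count as 1 measurement.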

How the data were processed

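ATAC-seq was done on 10 libraries, 1 per condition. The values are a signal per gene, deposited by the authors as a table of 21965 Ensembl genes and 20 columns. No source used here gives the window, how libraries were scaled, or the relation of the 2 columns of a library, which were counted as 1 sample. Read depth is unknown, so no counting interval was computed, and with 1 library per condition no p-value was computed. Per the submitters' processing notes, the build was mm10 and the tools included DESeq2 1.22.2, bedtools 2.25.0, deepTools, MACS2 2.1.0, Picard, SAMtools 1.3.1, Bowtie2 2.2.5, cutadapt 1.13 and Trimmomatic 0.35, with no role stated for any.

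Differences were computed on all genes with Python 3.11.15, numpy 2.4.6 and pandas 2.3.3 as log2(signal + 0.138), where 0.138 is the 10th percentile of values above 0. A gene was called at 2-fold with the higher mean signal at or above 6.92, the median of all values. Folds on this scale understate the change of low genes. Ranks used scipy 1.17.1 and the trend with signal was removed with lowess in statsmodels 0.14.6 (fraction 0.3, 3 iterations). The size rule was tested on simulated data, with changes planted only in genes whose Flag signal lay well above 6.92. That test therefore does not bear on the low Hox rows. Alternatives were quantile normalisation, each column alone, differences relative to all genes, a pseudocount 4 times larger or smaller, no minimum signal, and, added after the data were seen, the lowess step and the grouping by Klf4 in the label.

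The Hox members, the 9 other gene lists and the marker lists were chosen with earlier results of these data known. Named Hox genes were the 3 highest and 3 lowest of each cluster, those past the size rule, and in each comparison those with the largest differences in each direction among genes at the minimum signal; genes below it that are named for their values were chosen after those were seen. At most 2 called genes per other list and comparison were named. Coordinates and promoters are from RefSeq, GRCm38.p6, matched by symbol. The values of 1 member are not reported here; it stays in the counts and medians over all rows.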

Additional observations from a re-analysis of the deposited data

How the results depend on the processing

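Of 287 values recomputed under the alternatives, 254 kept their call, or moved by less than the measure of spread used for their kind of value, 24 moved by more, 5 fell below the size rule, 4 passed it and 0 changed sign while called. The rise of Hoxd13 in Klf4 over Flag passed 2-fold under every alternative run, with log2 differences between 1.15 and 1.43. The rise of Hoxd13 in SKO over Flag did not: it was 0.97 with the larger pseudocount, 0.26 after quantile normalisation, 0.54 relative to all genes, 0.64 in column 2 alone and 0.35 after the lowess step. The number of Hox rows higher in SKO over Flag was accordingly 0 with the larger pseudocount, quantile normalisation, values relative to all genes, column 2 alone and lowess, 10 in column 1 alone, and 2 with no minimum signal, where Hoxd1 is added. With no minimum signal it was also 2 in Klf4 over Flag, where Hoxb6 is added. Column 1 alone gave 3 rows lower in Oct4-L80A over Oct4, and column 2 alone 1 row lower in SKO-L80A+Vc over SKO-L80A.

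For a count the measure was 1.5 times, for the median Hox level the SD over libraries, and for a Hox median relative to all genes it was the SD between the 2 columns of that comparison, so a comparison with columns far apart was allowed a larger move. In Oct4-L80A over Oct4 the median was 0.06, with 0.19 in column 1 alone and -0.06 in column 2 alone, and in Sox2 over Flag it was -0.07, with -0.13 after quantile normalisation and after lowess. These moves were below that SD, although the sign of Oct4-L80A over Oct4 differed between its columns. Moves of the median past that SD follow. After quantile normalisation the median was -0.11 in Klf4, -0.10 in the library labelled Oct4 and -0.19 in SKO, each over Flag, and 0.055 in SKO-L80A+Vc over SKO-L80A. After lowess it was -0.056 in Klf4, -0.08 in the library labelled Oct4 and -0.12 in SKO. In column 1 alone it was 0.11 in Klf4, 0.081 in Oct4-L80A and -0.13 in SKO over Flag, and 0.068 in SKO-L80A+Ga over SKO-L80A. In column 2 alone it was 0.047 in Sox2 over Flag, and 0.058 in SKO-L80A and 0.16 in SKO+shBrg1, each over SKO. Under all alternatives run the sign of the Hox median held in SKO over Flag, in SKO-L80A and SKO+shBrg1 over SKO and in SKO-L80A+Ga over SKO-L80A, and it did not hold in the other 6 comparisons. The cause of these moves was not tested. No paired analysis was possible because each condition has 1 library. No library could be left out for the same reason. Depth is unknown, and most Hox rows lie below the minimum signal, so differences of 2-fold in them are not called.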
